A study of Arabidopsis thaliana with 12 samples.

Results

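The chloroplast (plastid) genome of Arabidopsis thaliana carries its own small set of genes, and its transcripts were followed here across light and genotype. All loci whose code begins with ATCG were taken, which gave 133 of the 33602 loci in the count tables: 88 protein-coding, 8 rRNA and 37 tRNA genes. RNA-seq had been made from whole seedlings 10 days old, raised in long days at 130 µMol s-1 m-2 (normal light) or at 30 µMol s-1 m-2 (low light). At each light level there were 3 libraries of the wild type Col-0 and 3 of atrx-2, a mutant of ATRX, which encodes a chromatin remodeller that helps deposit a histone variant. The agents compared were thus 1 mutant allele and 1 change of light level, in 12 libraries of total RNA read as single reads of 50 bases on a shared flow cell. Replicates are numbered in the labels with no word on separate cultures, so the p-values below reflect the spread between libraries, which may be technical.

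A chloroplast contains many copies of a circular genome that encodes core subunits of the photosystems, the cytochrome b6f complex, ATP synthase, the NDH complex and Rubisco, together with the plastid ribosome's RNAs and part of its proteins. Its genes are read by a multisubunit plastid-encoded RNA polymerase of bacterial type, which needs nuclear-encoded sigma factors to start, and by phage-type RNA polymerases imported from the nuclear genome. Many genes are transcribed together as units that are later cut into smaller RNAs, and the stability of each RNA depends on nuclear-encoded binding proteins and nucleases.

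The libraries held 13733302 to 23899191 estimated counts, of which 426754 to 1526486 fell on plastid genes. The count of ATRX lay between 537 and 905 in the wild-type libraries and between 6 and 20 in the atrx-2 libraries, so the labels of the mutant held in all 12. A large inverted repeat gives some genes an identical second copy: 17 pairs of loci had equal estimated counts in every library and are named together below, since a read cannot be placed on 1 copy. The count tables give locus codes only. Names were taken from the RefSeq annotation of the TAIR10.1 plastid genome (154478 bases) by transcript length: 63 loci matched 1 length there and 45 more were placed by length between such neighbours, which is an inference, and 25 stayed unnamed and are given by code.

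Several members are short or share bases, and those the results below turn on for their small size, overlap or direction are shown first, with sequences from RefSeq (TAIR10.1, plastid chromosome Pltd, all 5′ to 3′ on the strand of the gene). The psbM coding region (ATCG00220, Pltd:28707-28811, minus strand, 105 bases, no intron) and the psbN coding region (ATCG00700, Pltd:74249-74380, minus strand, 132 bases), which lies on the opposite strand inside the psbB unit, are printed with start and stop codons in capitals. The 53 bases that psbD and psbC share (Pltd:33720-33772, plus strand) run from the start codon of psbC to the stop codon of psbD, both in capitals, so reads inside them cannot be given to 1 gene. In the tRNA for threonine (ATCG00390, Pltd:46213-46285, minus strand, 73 bases) the capitals mark the anticodon found by a search for a 5-base stem around a 7-base loop. The 4.5S rRNA (rrn4.5, ATCG00960, Pltd:107599-107701, plus strand, 103 bases) is one of a pair of identical copies and has no capitals.
psbM: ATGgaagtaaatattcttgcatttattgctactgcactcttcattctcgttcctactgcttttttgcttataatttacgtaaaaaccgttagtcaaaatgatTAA
psbN: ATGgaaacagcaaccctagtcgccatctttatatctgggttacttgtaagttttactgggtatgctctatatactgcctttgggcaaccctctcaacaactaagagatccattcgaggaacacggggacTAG
psbD and psbC overlap: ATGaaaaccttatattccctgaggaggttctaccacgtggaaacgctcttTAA
tRNA-Thr: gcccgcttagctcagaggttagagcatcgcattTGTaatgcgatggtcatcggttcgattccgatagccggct
rrn4.5: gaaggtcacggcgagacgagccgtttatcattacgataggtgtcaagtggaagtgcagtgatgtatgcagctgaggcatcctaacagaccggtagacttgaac

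The first question was how much of each library came from the plastid genome. In wild type under normal light the plastid share was 3.43%, 3.36% and 3.37% of all counts. In atrx-2 under normal light it was 2.29%, 3.30% and 3.55%. Under low light it was 4.83%, 5.93% and 8.90% in Col-0 and 4.91%, 6.99% and 7.12% in atrx-2. Every low-light library lay above every normal-light library, and the libraries of the genotypes overlapped within each light level. The group means were 3.38% ± 0.037 and 3.05% ± 0.665 under normal light and 6.55% ± 2.11 and 6.34% ± 1.24 under low light (SD, n = 3, wild type first). The share was 1.98-fold higher under low light over both genotypes (exact stratified permutation test, two-sided, p = 0.005, the smallest this design allows; Benjamini-Hochberg adjusted p over 16 such tests 0.02). Within 1 genotype the same test cannot go below 0.1. Counting error was small beside this spread: the 95% Wilson interval of a library's plastid share was at most 0.0301 percentage points wide. Such intervals cover counting error only, and in whole seedlings more plastid RNA per cell, more plastids and more green cells cannot be told apart.

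The classes of plastid RNA are given in turn. Plastid rRNA took 2.11%, 1.78% and 2.12% of counts in wild type under normal light and 3.40%, 3.98% and 6.36% under low light. In atrx-2 it took 1.03%, 1.06% and 1.95%, against 3.31%, 5.197% and 4.43%. The low-light values all lay above the normal-light values, and the share was 2.70-fold higher (exact stratified permutation test, p = 0.005, adjusted p = 0.02). For the protein-coding genes the wild-type shares were 1.29%, 1.54% and 1.23% under normal light and 1.41%, 1.92% and 2.52% under low light. The atrx-2 coding shares were 1.24%, 2.20% and 1.58%, against 1.58%, 1.76% and 2.66%. Here the light levels overlapped, and the 1.30-fold difference did not pass (exact stratified permutation test, p = 0.105, adjusted p = 0.24). Without atrx-2 replicate 2 under normal light, which had the highest coding share of that light level, the unadjusted p was 0.045 and the difference 0.486 on the log2 scale. The tRNA genes made up between 0.0216% and 0.0405% of counts and overlapped between all groups (0.915-fold under low light, exact stratified permutation test, p = 0.465). The protein-coding part of the plastid counts accordingly stood at 36.4% to 66.6% under normal light and at 25.3% to 37.3% under low light. The ranges overlap only in the lowest normal-light and the highest low-light library.

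Ribosomal RNA from outside the plastid moved in the same way. The nuclear 18S rRNA locus took 6.24%, 6.84% and 5.91% of counts in Col-0 and 5.28%, 3.70% and 8.64% in atrx-2 under normal light. Under low light it took 11.0%, 11.4% and 16.7% in Col-0 and 9.77%, 15.4% and 12.01% in atrx-2, with no overlap between light levels (2.11-fold, exact stratified permutation test, p = 0.005, adjusted p = 0.02). Among the 6 low-light libraries the plastid rRNA share followed the 18S share (Pearson's r = 0.969, permutation p = 0.00139, adjusted 0.0167; Spearman's rho = 1, permutation p = 0.00278, adjusted 0.0333, over 12 relations), with r = 0.882 without the 2 libraries farthest from the median. Among the 6 normal-light libraries the relation did not pass (r = 0.728, permutation p = 0.0875; rho = 0.429, permutation p = 0.419). The plastid coding share gave no relation that passed: under low light r was 0.521 (permutation p = 0.281) and rho 0.657 (permutation p = 0.175), and under normal light r was -0.451 (permutation p = 0.362) and rho 0.0857 (permutation p = 0.919). Relative to 18S counts, plastid coding counts were 0.616-fold under low light (exact stratified permutation test, p = 0.01, adjusted p = 0.032); this ratio lost its call without atrx-2 low-light replicate 1 (p = 0.055) or 2 (p = 0.075). How much rRNA was removed from the libraries, or whether polyadenylated RNA was selected, is not given in the sources used here, and its part in the light differences was not tested. Mitochondrial genes, the other organelle's set of 146 loci, had a 1.69-fold higher share under low light (exact stratified permutation test, p = 0.005, adjusted p = 0.02). The ratio of plastid to mitochondrial counts ran from 11.6 to 17.6 under normal light and from 13.5 to 18.6 under low light and did not pass (1.17-fold, exact stratified permutation test, p = 0.095, adjusted p = 0.24). The 2 loci ATMG00020 and ATMG01390 held 93.0% of the mitochondrial counts. The mitochondrial share and this ratio therefore rest mostly on these 2 loci and say little about the other mitochondrial genes.

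**Figure D1:**
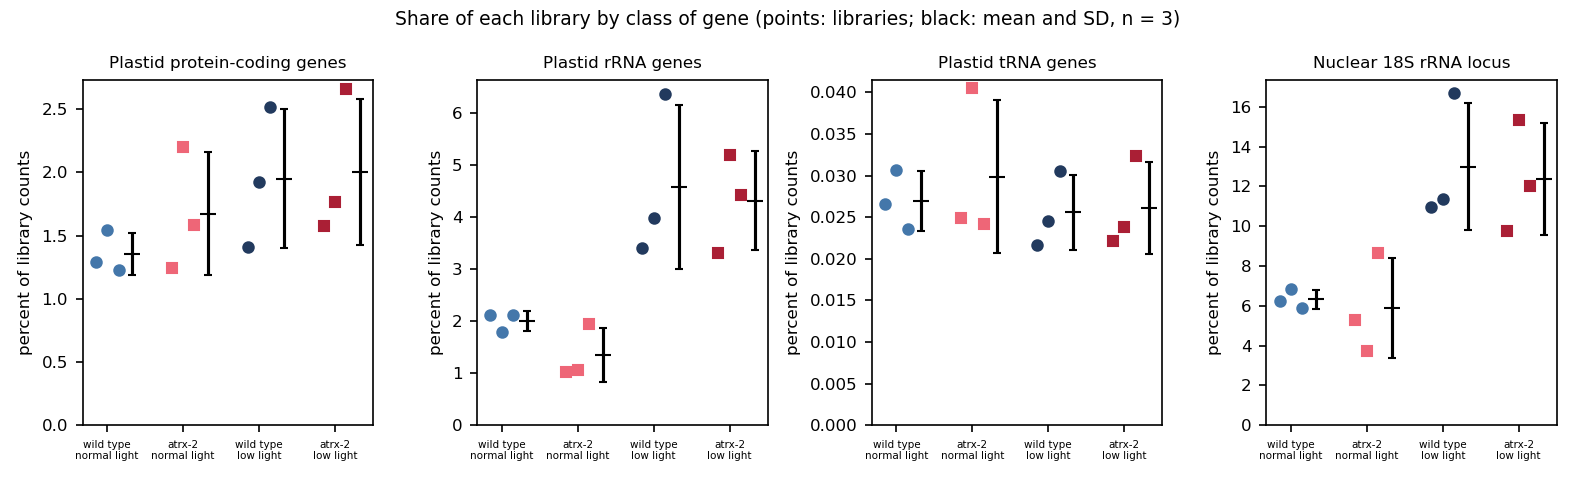
Percent of each library's counts (y axis, from 0) on plastid protein-coding genes, plastid rRNA genes, plastid tRNA genes and the nuclear 18S rRNA locus, for the 4 groups; points are libraries and black marks the mean and SD of 3. Plastid rRNA ran from 1.03% to 2.12% under normal light and from 3.31% to 6.36% under low light, while the coding shares overlapped between light levels.

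None of these shares passed a test for genotype over both light levels. Under normal light alone, where p cannot go below 0.1, the genotypes did not overlap in the mitochondrial share (0.184%, 0.188% and 0.238% in atrx-2 against 0.273% to 0.290% in wild type) or in the plastid to mitochondrial ratio (12.5 to 17.6 against 11.6 to 12.3), each at that smallest p of 0.1 in the exact permutation test. Both measures rest mostly on the mitochondrial loci ATMG00020 and ATMG01390. The plastid share was 0.934-fold in atrx-2 (exact stratified permutation test, p = 0.58) and the coding share 1.11-fold (exact stratified permutation test, p = 0.43). Plastid rRNA was 0.786-fold (exact stratified permutation test, p = 0.165), with 2 of the 3 atrx-2 libraries under normal light, at 1.03% and 1.06%, below all wild-type libraries and the third at 1.95% among them.

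Within the protein-coding set, levels were compared as counts per base of transcript, relative to the mean of the whole set, so that a value of 1 is the set's mean. Counts were concentrated in few genes: atpB, the beta subunit of ATP synthase, held 22.0% of the coding counts on average over the 12 libraries, atpE, its epsilon subunit, 8.57%, and psbC and psbD, a core antenna protein and a reaction centre protein of photosystem II, 8.37% and 5.70%. The 10 loci with most counts held 70.0%, and 25 of 81 distinct coding genes with counts stood above the set's mean per base. Per base the order was led by psbM (35.1), a small photosystem II subunit, atpE (17.0), rpl32 (13.7), a ribosomal protein, and atpB (11.6), followed by psbC (4.66), rpl16 (4.53) and psbD (4.25). Each repeat pair entered this order as 1 copy, with the counts of that copy only. The rpl2 copy ATCG00830 stood at 3.33, and each rpl2 copy held 130910 counts. With copies summed rpl2 would stand higher. The order and the number above the mean were not worked out that way. Rubisco's large subunit rbcL stood at 2.56 and the photosystem II reaction centre protein psbA at 2.39. Towards the other end the polymerase gene rpoB stood at 0.0357, rank 73 of 81. One copy of ycf2, a protein of the plastid's import machinery, stood at 0.00933, and the short ycf1 copy (ATCG01000) was last at 0.00336. Among the highest the spread between libraries was wide for psbM, which in wild type under normal light stood at 48.8 ± 9.59 per base (SD, n = 3), and narrow for atpB.

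**Figure D2:**
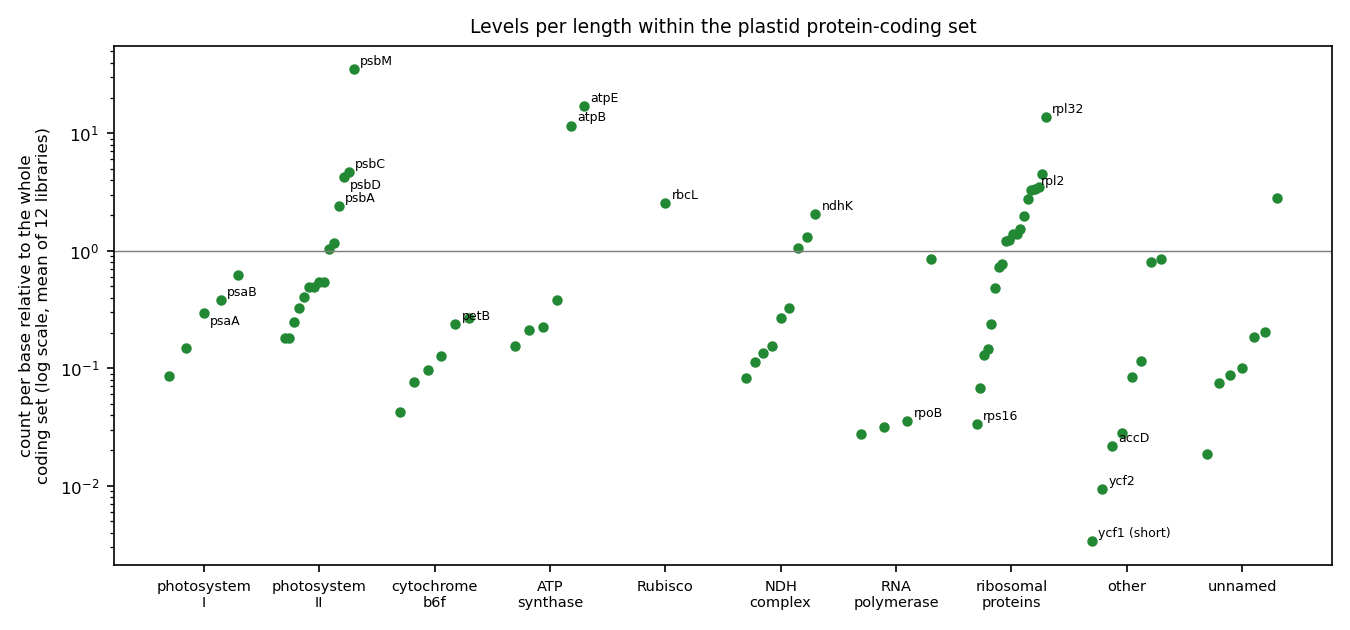
Count per base of each distinct plastid protein-coding gene with counts relative to the whole coding set (y axis, log scale, mean of 12 libraries), sorted within functional groups (x axis); the line marks the set's mean. psbM, atpE, rpl32 and atpB stood more than 10 times above the mean. Each repeat pair is shown as 1 copy with the counts of that copy only, such as ycf2 at 0.00933. The short ycf1 copy was lowest, at 0.00336.

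The gene atpB was the steadiest member by its share of the coding counts. That measure favours it, since atpB supplied 22% of the total it was divided by, so part of a change cancels. psaA, compared below, made up at most 1.56% of that total. On the scale of all genes atpB was called for light in wild type, as given further below. Its share of the coding counts was 22.5%, 22.7% and 22.3% in Col-0 and 21.9%, 23.0% and 22.2% in atrx-2 under normal light. Under low light it was 22.8%, 22.6% and 20.2% in Col-0 and 22.2%, 20.5% and 21.7% in atrx-2. The light levels overlapped, although every wild-type normal-light library lay above every atrx-2 low-light library, and the coefficient of variation over the 12 libraries was 3.93%, against 54.8% for psaA, a reaction centre protein of photosystem I.

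For tests across genes, edgeR's quasi-likelihood test was fitted to all genes of the libraries, with Benjamini-Hochberg adjustment over the 20783 genes tested, and a gene is said to have risen or fallen where the adjusted p was under 0.05. Of the 133 plastid loci 117 passed the filter on low counts: 86 coding, 8 rRNA and 23 tRNA genes. The 16 others were 14 tRNA genes with at most 17 counts in any library, the coding locus ATCG00905 with no count in any library, and the short copy of ycf1 (ATCG01000), a truncated repeat of a gene for a protein import component. That copy held 145 counts in wild type normal-light replicate 3, 9 in atrx-2 low-light replicate 2 and 0 in the other 10 libraries. Plastid genes varied more than most: the median biological coefficient of variation was 24.9% over plastid genes and 9.41% over all genes tested.

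No plastid gene was called for genotype. In edgeR 0 of 117 passed under normal light, where 0.0674% of all genes were called, 0 under low light (0.0722% of all genes), 0 averaged over light levels (0.308%) and 0 for the genotype by light interaction (0.00481%). At an unadjusted p under 0.05 there were 6, 0, 3 and 0 members in these edgeR tests, and DESeq2 also called 0 in each. Those under normal light included the 23S rRNA pair, at a log2 difference of -0.77 ± 0.28 (edgeR adjusted p = 0.483), the 4.5S rRNA pair at -0.77 ± 0.36 (0.578), and the ribosomal protein gene rpl36 at 0.98 ± 0.38 (0.519); none of these passed. Averaged over light levels the 3 were the 23S pair and a glycine tRNA, also not called. In CPM, the 23S rRNA copy ATCG00950 stood at 6930, 4722 and 6592 in Col-0 and 2822, 2869 and 4973 in atrx-2 under normal light. The highest atrx-2 value overlapped the lowest wild-type value, and under low light the values of 10482, 12916 and 22667 in Col-0 and 10734, 17322 and 13599 in atrx-2 overlapped fully.

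Low light raised many plastid genes in both genotypes. In wild type 56 of 117 changed in edgeR, 55 up and 1 down, where 34.2% of all genes were called (16.6% higher and 17.6% lower). In atrx-2 39 changed, 37 up and 2 down, where 33.1% of all genes were called (16.1% higher and 16.9% lower). The median log2 difference was 0.74 over the members tested and -0.0049 over all genes in Col-0, and 0.43 and 0.0069 in atrx-2. Of the members 35 rose in both genotypes and 1 fell in both. The copies of a repeat pair have equal counts, so a called pair adds 2 to these counts. With the copies summed, 45 of 107 members rose and 1 fell in wild type, and 29 rose and 2 fell in atrx-2. Beside these counts stands the rRNA content of the libraries: with the log2 18S share as a covariate 0 members were called for light in Col-0 and 4 in atrx-2, namely the 23S and 4.5S rRNA pairs, while 2784 and 2489 of all genes were still called. The normal-light and low-light ranges of the 18S share do not meet, so light level and 18S share cannot be told apart. Without wild-type normal-light replicate 1 or 3 the wild-type count was 36, and without low-light replicate 3 it was 31.

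The ribosomal RNAs, which form the plastid ribosome together with plastid and nuclear proteins, rose in full. All 8 rRNA loci, which form 4 pairs of identical copies, rose in both genotypes. The copy of rrn4.5 at ATCG00960 stood at 5.91, 5.18 and 6.36 CPM in wild type under normal light and 11.6, 18.7 and 30.2 under low light. In atrx-2 it stood at 2.44, 2.59 and 5.25 CPM and at 15.4, 25.3 and 19.8. The light levels did not overlap, and the log2 difference was 1.76 ± 0.31 in wild type (edgeR adjusted p = 0.000554) and 2.55 ± 0.33 in atrx-2 (edgeR adjusted p = 3.84e-05); the interaction did not pass. The 16S rRNA pair (rrn16) rose by 1.496 ± 0.31 (edgeR adjusted p = 0.00167) and 1.66 ± 0.31 (0.000765) on the log2 scale. The 23S pair (rrn23) rose by 1.34 ± 0.28 (edgeR adjusted p = 0.00192) and 1.97 ± 0.28 (9.75e-05), and the 5S gene rrn5, which shares its counts with the unnamed locus ATCG00970, by 1.84 ± 0.41 (0.00315) and 1.59 ± 0.42 (0.00934). Of the 50-base windows of rrn23, 13.1% also occur in the mitochondrial genome. The spacer between the 16S and 23S genes carries tRNA genes, and the alanine tRNA pair (trn-Ala, ATCG00940 and ATCG01190) rose by 1.82 ± 0.38 (edgeR adjusted p = 0.00189) and 2.39 ± 0.37 (0.000187). The unnamed tRNA pair ATCG00930 and ATCG01200, next to it by code, rose by 2.03 ± 0.36 (edgeR adjusted p = 0.000596) and 2.29 ± 0.36 (0.000229).

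Of the named protein-coding genes, psaA and psaB had the largest light differences in atrx-2, and psaA, psbH and psaB in wild type. The reaction centre pair psaA and psaB binds the special chlorophylls at which photosystem I separates charge. The gene psaA stood at 77.5, 54.6 and 73.6 CPM in Col-0 and 31.9, 52.3 and 84.1 in atrx-2 under normal light. Low-light values were 127, 239 and 452 CPM in Col-0 and 195, 299 and 275 in atrx-2. No low-light library overlapped a normal-light library, and the wild-type low-light libraries were the most scattered. The log2 difference was 1.99 ± 0.38 in wild type (edgeR adjusted p = 0.00108) and 2.19 ± 0.39 in atrx-2 (edgeR adjusted p = 0.000532). For psaB it was 1.87 ± 0.37 (edgeR adjusted p = 0.0013) and 2.19 ± 0.37 (0.000405). In the whole photosystem I group 3 of 5 rose in Col-0 and 2 in atrx-2; psaC, which holds iron-sulphur clusters, rose in wild type by 1.02 ± 0.35 (edgeR adjusted p = 0.0377) and stood at 0.76 ± 0.35 in atrx-2 (0.112), and the small subunits psaI and psaJ did not pass. The gene rps14, for a ribosomal protein, is transcribed in the same unit as psaA and psaB but did not pass: its log2 difference was 0.35 ± 0.30 (edgeR adjusted p = 0.39) in Col-0 and 0.71 ± 0.30 (0.0852) in atrx-2.

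Among photosystem II genes 8 of 15 rose in wild type, and 6 rose and 1 fell in atrx-2. The gene psbA, for the D1 reaction centre protein that is replaced after light damage, stood at 492, 388 and 418 CPM in Col-0 and 310, 267 and 480 in atrx-2 under normal light. Low-light values were 589, 735 and 1033 CPM in Col-0 and 577, 779 and 619 in atrx-2. The light levels did not overlap, and the log2 difference was 0.86 ± 0.21 (edgeR adjusted p = 0.00615) in Col-0 and 0.90 ± 0.21 (0.00474) in atrx-2. The overlapping pair psbD and psbC gave 0.89 ± 0.37 (edgeR adjusted p = 0.0796) and 1.15 ± 0.39 (0.0324) in Col-0, and 0.43 ± 0.37 (0.405) and 0.69 ± 0.38 (0.189) in atrx-2, so only psbC in wild type passed. The inner antenna gene psbB and the small subunits psbT and psbH, which lead a unit that continues into petB and petD, all rose; psbH rose by 1.97 ± 0.38 (edgeR adjusted p = 0.00103) in wild type and 1.21 ± 0.36 (0.0172) in atrx-2 on the log2 scale. psbB stood at 62.4, 51.3 and 64.2 CPM in Col-0 and 34.6, 55.3 and 69.2 in atrx-2 under normal light, against 103, 169 and 292 and 137, 208 and 191 under low light. The light levels did not overlap, and psbB rose by 1.66 ± 0.31 (edgeR adjusted p = 0.000782) and 1.75 ± 0.31 (0.000516) on the log2 scale. The cytochrome b6f genes petB and petD of the same unit rose as well, petB by 1.78 ± 0.32 (edgeR adjusted p = 0.000571) and 1.47 ± 0.31 (0.00219). The gene psbN, on the opposite strand between psbT and psbH, stood at 0.64 ± 0.33 (edgeR adjusted p = 0.149) and 0.20 ± 0.32 (0.677) and did not pass. Whether the counting used strand is not given in the sources used here, so reads of psbN and of transcripts running through it cannot be told apart.

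The photosystem II subunit psbM, printed above, went the other way. It stood at 781, 1183 and 607 CPM in Col-0 and 934, 1021 and 740 in atrx-2 under normal light, and at 634, 738 and 698 and 561, 527 and 513 under low light. The wild-type groups overlapped and the atrx-2 groups did not. psbM fell by 0.75 on the log2 scale in atrx-2 (SE 0.18, edgeR adjusted p = 0.00526), and its wild-type difference of -0.31 ± 0.18 did not pass (edgeR adjusted p = 0.2); the interaction was not called.

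**Figure D3:**
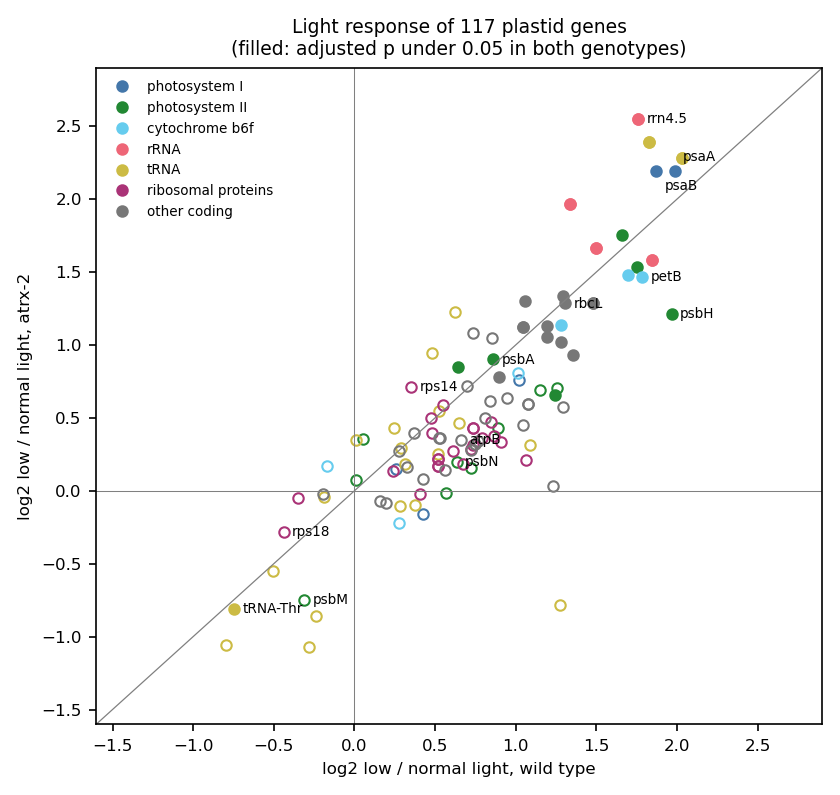
Log2 difference of low over normal light in wild type (x axis) and atrx-2 (y axis) for the 117 plastid genes tested, coloured by class; filled points passed in both genotypes and the diagonal marks equal values. The rRNA genes and psaA and psaB lie at the upper right, and tRNA-Thr is the filled point at the lower left.

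Counts of members called in the photosynthetic complexes, for the photosystems above and those that follow, were small. They can be read against the 16.6% and 16.1% of all genes called higher in wild type and atrx-2. Differences between complexes were not tested. In the cytochrome b6f complex 3 of 6 rose in both genotypes, petA, petB and petD, while the small subunits petG, petL and petN did not pass. Of the ATP synthase genes 4 of 6 rose in Col-0 and 3 in atrx-2. The alpha subunit atpA rose by 1.29 ± 0.32 (edgeR adjusted p = 0.00568) and 1.33 ± 0.32 (0.00479), whereas atpB rose by 0.66 ± 0.23 in wild type (0.0396) and stood at 0.35 ± 0.23 in atrx-2 (0.273). rbcL stood at 529, 451 and 562 CPM in Col-0 and 287, 307 and 773 in atrx-2 under normal light, against 922, 1085 and 1813 and 919, 1399 and 1014 under low light. Its light levels did not overlap, and it rose by 1.31 ± 0.33 (edgeR adjusted p = 0.00632) and 1.29 ± 0.33 (0.00723). Of its 50-base windows 10.1% also occur in the nuclear chromosomes and 14.5% in the mitochondrial genome. The NDH genes, whose complex carries electrons around photosystem I, gave 2 of 9 named loci in Col-0 and 0 in atrx-2. Among them ndhF stood at 0.16 ± 0.24 (edgeR adjusted p = 0.646) and -0.07 ± 0.24 (0.845). All these groups hold only genes named by length. Another 9 coding loci tested stayed unnamed and are in no group, and 7 of them rose in Col-0 and 2 in atrx-2. These 9 include the identical copies ATCG00870 and ATCG01270, and ATCG00890 and ATCG01250, so each of these pairs counts as 2 loci. The groups may therefore lack members.

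Genes of the plastid's own expression machinery come next, with counts again beside 16.6% and 16.1% of all genes called higher in wild type and atrx-2. All 4 RNA polymerase genes rose in Col-0 and 3 in atrx-2. The unit of rpoB, rpoC1 and rpoC2 is a classical target of the phage-type polymerases. rpoB stood at 18.2, 18.2 and 17.5 CPM in Col-0 and 13.2, 23.0 and 22.1 in atrx-2 under normal light, and at 18.1, 34.8 and 48.9 and 25.5, 34.0 and 40.3 under low light. Wild-type low-light replicate 1 lay among the normal-light libraries, and rpoB rose by 0.90 ± 0.28 (edgeR adjusted p = 0.023) and 0.78 ± 0.28 (0.0427). rpoC1 rose by 1.20 ± 0.35 (edgeR adjusted p = 0.017) and 1.13 ± 0.35 (0.0209) and rpoC2 by 1.28 ± 0.36 (0.0122) and 1.02 ± 0.35 (0.0356), and rpoA, in a different unit, rose by 1.05 ± 0.33 in wild type (0.0239) and stood at 0.45 ± 0.33 in atrx-2 (0.315). Of the 23 ribosomal protein loci tested, which include both copies of rpl2, rpl23 and rps7, 6 rose in Col-0 and 0 in atrx-2. The rpl2 pair stood at 0.52 ± 0.26 (edgeR adjusted p = 0.134) and 0.17 ± 0.26 (0.65), rpl32 at 0.41 ± 0.18 (0.0963) and -0.02 ± 0.18 (0.937), and rps18 at -0.44 ± 0.30 (0.284) and -0.28 ± 0.30 (0.511). Of the genes with other roles, ycf2 rose by 1.05 ± 0.30 (edgeR adjusted p = 0.0144) and 1.12 ± 0.30 (0.00973). The full-length ycf1 (ATCG01130) rose by 0.75 ± 0.27 in wild type (edgeR adjusted p = 0.0411) and stood at 0.32 ± 0.26 in atrx-2 (0.39). The acetyl-CoA carboxylase subunit accD and the protease subunit clpP did not pass in either genotype, with clpP at 0.20 ± 0.33 (edgeR adjusted p = 0.69) and -0.09 ± 0.33 (0.869).

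Among the tRNA genes 4 of 23 rose and 1 fell in wild type, and 5 rose and 1 fell in atrx-2. Beside these counts, 16.6% (Col-0) and 16.1% (atrx-2) of all genes were called higher, and 17.6% and 16.9% lower. The 4 loci that rose in Col-0 form 2 pairs of identical copies, trn-Ala and the pair ATCG00930 and ATCG01200. Both pairs rose in the mutant as well. The member that fell in both was tRNA-Thr (ATCG00390), printed above, which carries threonine to the plastid ribosome. It stood at 108, 114 and 110 CPM in Col-0 and 75.1, 136 and 81.9 in atrx-2 under normal light. The low-light libraries stood at 72.3, 58.5 and 66.8 CPM and at 65.7, 52.6 and 49.0. The light levels did not overlap, and it fell by 0.74 on the log2 scale in wild type (SE 0.18, edgeR adjusted p = 0.00476) and by 0.81 in atrx-2 (SE 0.18, edgeR adjusted p = 0.00285). A methionine tRNA (ATCG00320) had larger differences that did not pass, -0.79 ± 0.45 (edgeR adjusted p = 0.189) and -1.06 ± 0.46 (0.0928). The other smallest or most negative folds belonged to rps16 and to tRNA genes for glycine, glutamate, threonine (ATCG00260) and leucine (ATCG01030), none of which passed. The histidine tRNA and the leucine tRNA ATCG00400, which with psbM, rpl32 and tRNA-Thr had the most counts per effective base, did not pass, at 0.52 ± 0.27 (edgeR adjusted p = 0.148) and 0.37 ± 0.29 (0.347) in wild type.

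To see how the composition of the plastid set differed apart from its size, the same fit was run with each library's plastid coding total as its library size. On this scale, edgeR called 12 members higher and 4 lower under low light in wild type, where 0.967% of all genes were called higher and 21.7% lower. In atrx-2 16 were higher and 3 lower (0.996% and 9.14% of all genes), and 0 were called for genotype or interaction. The scaling itself moved all genes: their median log2 difference became -0.638 (Col-0) and -0.412 (atrx-2). The shares of all genes given here are therefore no yardstick for the members. psaA made up 0.619%, 0.363% and 0.648% of coding counts in Col-0 and 0.272%, 0.263% and 0.566% in atrx-2 under normal light. The low-light shares were 0.869%, 1.17% and 1.54% in Col-0 and 1.23%, 1.56% and 1.02% in atrx-2. The light levels did not overlap, and on this scale psaA rose by 1.14 ± 0.36 (edgeR adjusted p = 0.013) and 1.79 ± 0.37 (5.01e-05). rps14 took 0.926%, 0.376% and 0.790% in Col-0 and 0.374%, 0.457% and 0.336% in atrx-2 under normal light, against 0.506%, 0.489% and 0.555% and 0.664%, 0.471% and 0.393%. Its light levels overlapped in each genotype, with log2 differences of -0.43 (edgeR adjusted p = 0.304) and 0.39 (0.494). The summed share of psaA and psaB had r = 0.651 (permutation p = 0.165) and rho = 0.486 (permutation p = 0.356) with the 18S share under normal light, and r = 0.605 (permutation p = 0.196) and rho = 0.543 (permutation p = 0.297) under low light. None of these passed.

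Other transcription units varied in how alike their members were on the within-set scale. The 5 genes of the psbB unit lay between 0.85 and 1.19 in wild type and between 0.78 and 1.35 in atrx-2, and 4 of the 5 were called in each. petB took 0.121%, 0.114% and 0.154% of coding counts in Col-0 and 0.104%, 0.102% and 0.177% in atrx-2 under normal light, against 0.208%, 0.274% and 0.298% and 0.255%, 0.326% and 0.222% under low light. psbH was the least abundant of the unit. Its lowest share was 0.0251%, in wild-type normal-light replicate 2 (95% Wilson interval 0.0198% to 0.0319%). Its highest normal-light share was 0.0551% and its lowest low-light share 0.0571%. The intervals of psbH were up to 0.0203 percentage points wide, more than the gap between these shares, so counting error could close that gap. psbN took 0.0326%, 0.0196% and 0.0461% in Col-0 and 0.0264%, 0.0320% and 0.0326% in atrx-2 under normal light and between 0.0190% and 0.0370% under low light, with full overlap. The atpB and atpE pair lay between -0.18 and -0.04, the 11 genes from rpl23 to rpoA between -0.24 and 0.36 over both genotypes, and none of these was called. Members of the unit atpI, atpH, atpF and atpA ran from -0.48 to 0.49 in wild type and from -0.12 to 0.94 in atrx-2, and those of psbE, psbF, psbL and psbJ from -0.10 to 0.54 and from -0.51 to 0.54, with none called. In the rRNA operon 2 of the 4 named loci were called in Col-0 and 3 in atrx-2.

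**Figure D4:**
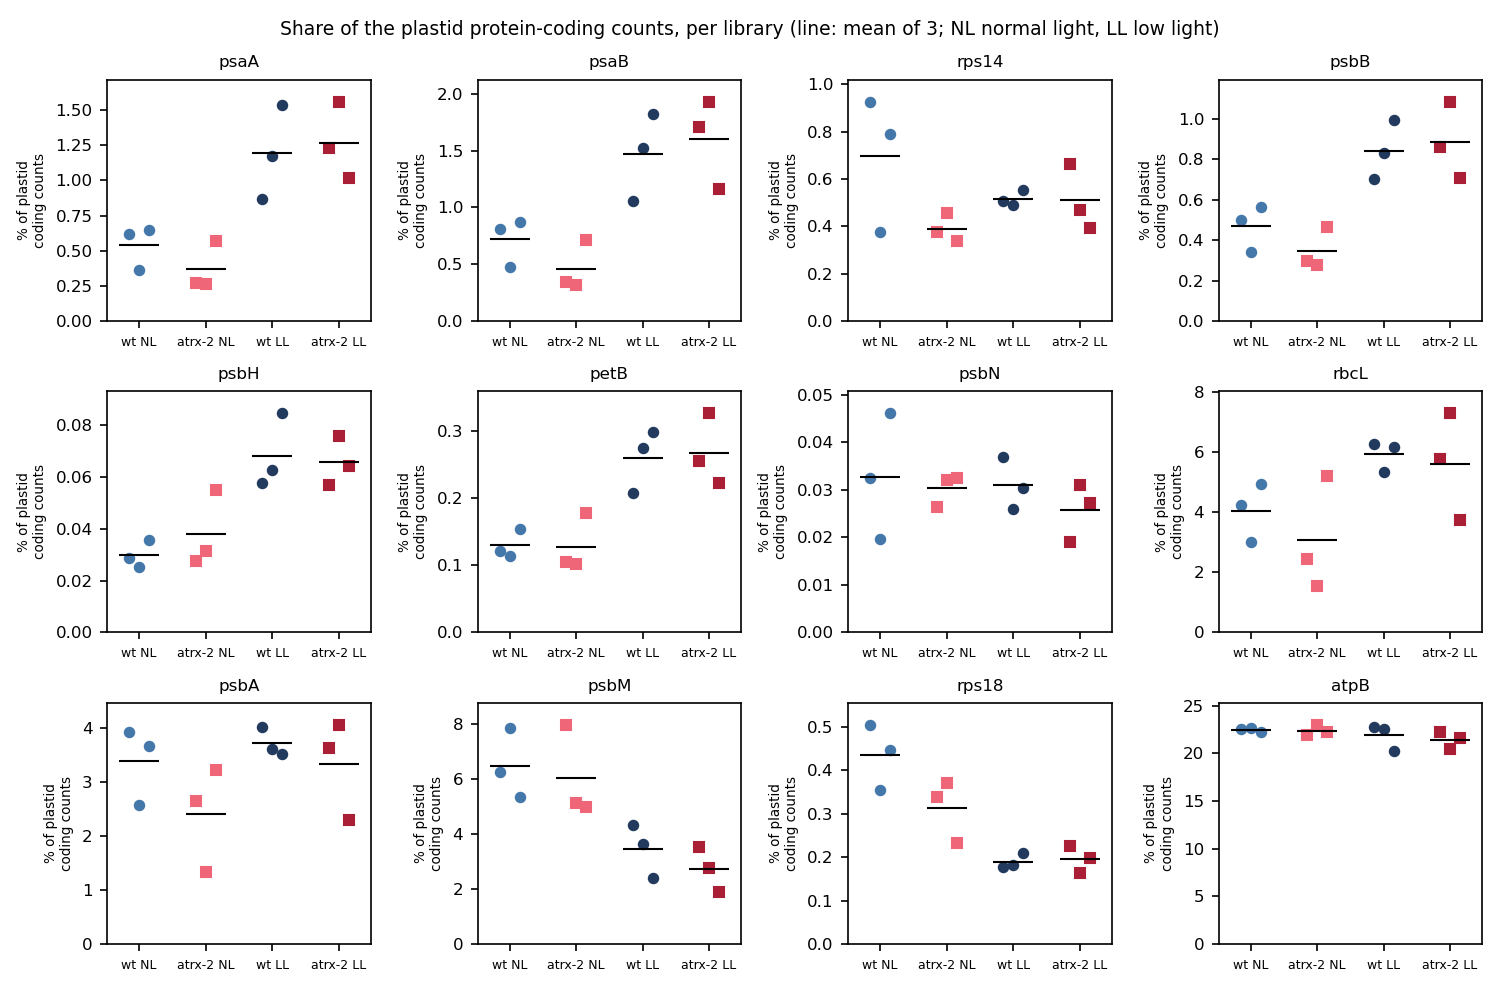
Percent of plastid coding counts (y axes, from 0) for 12 protein-coding genes in each library; lines are means of 3 (NL normal light, LL low light, wt wild type). psaA, psaB, psbB, psbH and petB had no overlap between light levels, psbM and rps18 were lower under low light, and atpB stayed between 20.2% and 23.0%.

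The members called lower on this scale were psbM and rps18 and a pair of tRNAs. psbM made up 6.24%, 7.85% and 5.34% of coding counts in Col-0 and 7.97%, 5.13% and 4.97% in atrx-2 under normal light. The low-light shares were 4.33%, 3.63% and 2.38% in Col-0 and 3.53%, 2.75% and 1.90% in atrx-2. The light levels did not overlap, and on this scale psbM fell by 0.91 (edgeR adjusted p = 0.0461) and by 1.14 (0.0176) on the log2 scale. rps18, for a small-subunit ribosomal protein, made up 0.505%, 0.355% and 0.447% in Col-0 and 0.338%, 0.370% and 0.232% in atrx-2, against 0.177%, 0.182% and 0.211% and 0.225%, 0.164% and 0.199%. Its light levels did not overlap, and it fell by 1.20 in wild type (edgeR adjusted p = 0.00727), with -0.68 not passing in atrx-2 (0.219). tRNA-Thr (ATCG00390) fell by 1.36 (edgeR adjusted p = 0.00241) and by 1.11 (0.0231), and the methionine tRNA ATCG00320 by 1.51 (0.00487) and by 1.51 (0.00847).

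All 12 libraries were also compared for overlap on the within-set scale, as counts relative to the plastid coding total and not as CPM. On it 12 of 86 coding genes tested were higher in every low-light library than in any normal-light library, and 7 were lower. Over all genes 0.597% were higher without overlap and 10.3% lower, but the scaling shifts these shares too, so they are no yardstick for the members. The higher coding genes were psaA, psaB, psbB, psbT, psbH, petA, petB, petD, atpA, the photosystem I assembly gene ycf4 and the pair ATCG00870 and ATCG01270. The lower ones were psbM, rps18, rps4, ndhF, the cytochrome assembly gene ccsA and the rpl2 pair. In several the gap was very narrow. The highest normal-light and lowest low-light shares were 0.2998% and 0.2999% for atpA and 0.0611% and 0.0618% for ycf4. Lowest normal-light and highest low-light shares were 0.1057% and 0.105% for rps4 and 0.0319% and 0.0309% for ccsA. Counting error was not weighed in this comparison. On the same scale 4 of 8 rRNA loci, the rrn16 and rrn4.5 pairs, were higher without overlap. Of the tRNA loci 4 of 23 were higher, which form 2 pairs of identical copies, and 2 were lower. By length, the median within-set log2 difference, averaged over genotypes, was -0.16 in 25 named coding genes shorter than 300 bases, -0.0074 in 30 genes from there to below 1000 bases and 0.30 in the 18 longer ones. Across these 73 genes Spearman's rho with length was 0.349 and with GC content 0.283, given as a description, since genes share their libraries and are not independent replicates. The light differences in the genotypes, which share no libraries, had r = 0.836 and rho = 0.809 across 80 distinct coding genes on the scale of all genes, again as a description.

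The within-set counts depended on scaling and on single libraries. Scaled by TMM factors over the coding members, 7 members were called in wild type (4 higher, 3 lower) and 15 in atrx-2 (14 higher, 1 lower), and with the 18S share as a covariate 0 were called in both. These settings were chosen after seeing the data. The wild-type count was 2 without normal-light replicate 1 or without low-light replicate 2, 6 and 5 without normal-light replicates 2 and 3, 9 without low-light replicate 3 and 10 without atrx-2 low-light replicate 2. The atrx-2 count was 10 without atrx-2 low-light replicate 2.

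Nuclear genes that act on plastid transcripts were read from the same edgeR fit by lists. Beside the counts below, 16.6% of all genes were called higher and 17.6% lower in Col-0, and 16.1% and 16.9% in atrx-2. The lists are small, and their difference from these shares was not tested. Of the sigma factors and proteins associated with the plastid-encoded polymerase, 7 of 18 loci were kept, because the annotation gives the other symbols to other loci; 0 rose and 2 fell under low light in Col-0 and 1 rose and 3 fell in atrx-2. With all 18 loci, an alternative chosen after seeing the data, the counts were 2 up and 3 down, and 3 up and 3 down, which is near the shares of all genes. SIG5, a sigma factor with a part in blue light and stress responses, stood at 101 ± 23.5 CPM under normal and 42.8 ± 3.69 under low light in wild type (SD, n = 3; log2 -1.23, edgeR adjusted p = 1.38e-05), and at 97.9 ± 12.7 and 35.2 ± 0.672 in atrx-2 (log2 -1.48, edgeR adjusted p = 2.52e-06). SIG3 fell in both, SIG1 fell in atrx-2 and SIG2 rose in atrx-2 (log2 0.19, edgeR adjusted p = 0.0388). Of the 2 phage-type polymerases RPOTp fell by 0.62 (edgeR adjusted p = 0.000766) and 0.57 (0.00127) on the log2 scale. Among 13 genes for plastid RNA stability and processing 1 rose and 6 fell in each genotype: PrfB3 fell by 1.27 (edgeR adjusted p = 1.02e-07) and 1.02 (6.03e-07), and PGR3 rose by 0.45 (0.00137) and 0.38 (0.00422). CSP41B, an RNA-binding protein, fell by 0.58 (edgeR adjusted p = 2.84e-05) and 0.64 (1.14e-05), and HCF145 by 0.37 (0.00288) and 0.65 (3.12e-05).

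Nuclear-encoded subunits of the same complexes were read in the same way, beside the same shares of all genes (16.6% higher and 17.6% lower in Col-0, 16.1% and 16.9% in atrx-2). Of 24 genes 9 rose and 9 fell in Col-0 and 8 rose and 10 fell in atrx-2. Photosystem I subunits gave 7 up of 9 in Col-0 and 6 in atrx-2, with PSAF at 0.87 (edgeR adjusted p = 2.91e-07) and 0.54 (2.52e-05) and PSAO at 0.69 (3.5e-06) and 0.63 (8.75e-06) on the log2 scale. The NDH subunits all fell, 4 of 4 in each genotype, with NDHM at -1.42 (edgeR adjusted p = 3.24e-08) and -1.34 (5.26e-08) and NDHO at -0.87 (1.42e-05) and -0.84 (1.94e-05). Rubisco small-subunit genes fell in 3 of 4, and both cytochrome b6f genes fell, in each genotype. Photosystem II subunits gave 2 up of 3 in each genotype and 1 down in atrx-2. Of the 2 ATP synthase subunits 0 were called. None of the genes on these lists was called for genotype. Of 10 root markers 2 rose in wild type, PIP2;4 and NRT2.1, and 1 in atrx-2, PIP2;4. These counts are near the 16.6% and 16.1% of all genes called higher, and NRT2.1 was low, at 0.506 CPM under normal and 1.51 under low light in wild type. The markers were also summed. Their summed level was 101 to 116 CPM in Col-0 and 92.8 to 107 in atrx-2 under normal light and 99.7 to 124 and 104 to 120 under low light, with no root marker at 0, and its part in the plastid results was not tested. Of the 2 shoot apex and 2 guard cell markers tested 0 were called for light.

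Plastid sequence also sits in other genomes of the plant. For 64 of 78 named coding loci no 50-base window occurs in the nuclear chromosomes of TAIR10.1. The highest shares were 23.9% of windows in the short ycf1 copy, 16.0% in rps2 and 10.1% in rbcL, with 2.95% in psaA and 0% in psbM. Reads from such windows could be counted for either genome, and their part in the values was not tested.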

How the data were processed

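Per the labels' protocols, total RNA of whole seedlings was made into NEBNext Ultra II libraries. The authors deposited 1 table per library with estimated counts, effective lengths and TPM, for which the submitters' processing notes list kallisto 0.42, DESeq2 and the build TAIR10. The deposited TPM values were not used, since short transcripts have effective lengths of a few bases. Between 12.3% and 13.9% of the estimated counts were not whole, and all were rounded. The sources used here do not state strand use, poly(A) selection or rRNA removal.

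Members were named by matching deposited transcript length to RefSeq spliced length (TAIR10.1). Counts of all genes were filtered with filterByExpr, scaled by TMM and fitted with edgeR 4.0.16 under R 4.3.3 (glmQLFit, 4-group model, 8 residual degrees of freedom), with Benjamini-Hochberg adjustment over all genes tested in each contrast and a threshold of 0.05. The biological coefficient of variation was 10.4%. CPM used TMM-scaled sizes. The within-set fit used plastid coding totals as library sizes. The fit was tested on simulated data. Single shares were tested on log2 values by exact permutation within strata (400 arrangements). Equal counts of repeat copies were called at a tolerance of 0.0001. The replicates of a group differed by more than sampling noise (chi-square per gene at least 6.045), so none was merged.

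Named were a set list of core subunits, polymerase, rRNA and large genes, any called for genotype or interaction, the 5 members with the most counts per effective length, the 5 largest and 5 smallest folds for light in each genotype, members needed by small counts, ATRX, the 18S locus and up to 4 called genes of each nuclear list. On the set list, ndhB, matK and rps12 were not matched to a locus by length and are not reported by name. The members, gene lists, transcription units and sequences shown were chosen with earlier results of these data known. Alternatives were DESeq2 1.42.0, other scalings and filters, repeat copies summed, an 18S covariate, a replicate block and leaving out each library. Values of 1 member are not reported here.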

Additional observations from a re-analysis of the deposited data

How the results depend on the processing

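The 0 calls for genotype and interaction were 0 in every alternative run. The counts of light calls (56 in wild type, 39 in atrx-2) stayed within 1.5 times under DESeq2, other factors, other filters and the replicate block. With repeat copies summed they were 46 and 31 of 107 members. With the log2 18S share as a covariate they were 0 and 4, and with the plastid coding total as library size 16 and 19. Leaving out each library gave 31 to 71 in wild type and 29 to 43 in atrx-2, and on the within-set scale 2 to 21 and 10 to 23, where the main counts were 16 and 19. Within the set, TMM factors over coding members gave 7 in wild type and the 18S covariate gave 0 in each genotype. The cause of these differences was not tested. Same-numbered libraries had low correlations of deviations, from -0.129 to 0.174. Between genotypes these ran from 0.0941 to 0.145 under low light and over that full range under normal light. The plastid coding share increased from replicate 1 to 2 to 3 in each genotype under low light. Under normal light it was highest in replicate 2 of each genotype. Whether the numbers pair the libraries for plastid genes was not tested. With the numbers as a replicate block the light counts were 62 and 46, and within the set 26 in wild type and 23 in atrx-2.

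Without plastid rRNA the light difference of the plastid share was 0.369 on the log2 scale (exact stratified permutation test, p = 0.105) in place of 0.98, and its genotype difference turned from -0.10 to 0.155 (exact stratified permutation test, p = 0.43). Leaving out each library gave 0.265 to 0.486 for the light difference of the coding share, 0.155 to 0.286 for that of the plastid to mitochondrial ratio (called only without atrx-2 normal-light replicate 2), and -0.196 to 0.0248 for the genotype difference of the plastid share, positive without wild-type low-light replicate 3. The genotype differences of the tRNA share (-0.0515 to 0.136, negative without atrx-2 normal-light replicate 2 or low-light replicate 3) and of the 18S share (-0.291 to 0.0141, positive without atrx-2 normal-light replicate 2) also changed sign; none of these genotype differences was called. The coding to 18S ratio lost its light call in the replicate block (paired exact sign-flip test, p = 0.0625) and without atrx-2 low-light replicate 1 or 2. Of 49 called light results of named genes, 45 lost their call with the 18S covariate, 5 under DESeq2 and 44 of 588 leave-one-out values; none changed sign.

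Counts limit the tRNA genes and the smallest coding genes most: the 95% interval of psbN shares was up to 54.3% of the value, that of atpB 1.54%.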
